A study of Mus musculus with 6 samples.

Results

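Chromatin accessibility was measured by ATAC-seq in mouse fetal liver cells transformed with the MLL-ENL fusion oncogene, and the regions considered here were open in cells with intact Cebpa and Cebpb and had almost no reads in cells lacking both genes. In ATAC-seq the Tn5 transposase cuts accessible DNA, and reads pile up over a region in proportion to how open it was. WT cells derived from Cebpa fl/fl, Cebpb fl/fl embryos and kept both genes. The dKO cells (Cebpa KO, Cebpb KO) were clones recovered after Cre treatment and carried GFP, whereas the WT labels list no exogenous gene. All groups carried MLL-ENL and grew in interleukin-3. There were 2 libraries each of WT, dKO and dKO-LAP* cells, the last of which expressed the rat C/EBPβ isoform LAP* with GFP. The table used here holds WT and dKO group means only, so that it rests on 4 libraries, and dKO-LAP* was not analysed here. Genotype, vector and the choice of surviving clones cannot be told apart in the comparison of dKO with WT.

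The regions were selected on their dKO mean. The table gives log2 normalised reads, and the lowest level in either group was -0.15, which corresponds to 1 read in each of the 2 libraries of a group. A region was taken as silent when its dKO mean was at or under 1.43, about 3 reads per library. This held for 235 of the 10016 listed regions, or 2.35%, and all 235 had the higher mean in WT. Lower accessibility in dKO was listed for 3981 regions, 39.7% of the table, which leaves 3746 other lower regions and 6035 higher regions for comparison. All listed regions had passed the authors' threshold, and unchanged regions were not part of the table. The WT and dKO means of the silent regions chose them and are given as a description, without a test. Each is the authors' mean of 2 libraries, without a value per library, so that no replicate error can be attached.

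C/EBPα and C/EBPβ are basic leucine zipper transcription factors that bind DNA as dimers and direct the development of granulocytes and monocytes. They can open or maintain enhancers of myeloid genes together with factors such as PU.1 and RUNX1. The family shares a binding sequence made of a short sequence and its mirror image, of which TTGCGCAA is the palindromic form, and many natural sites depart from it at a few bases. ATF4 and C/EBP proteins can also pair on a composite site, TGATGCAA.

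The C/EBP string TTGCNNAA or TTACNNAA, in which N is any base, was searched on both strands in the central 200 bp of each region. The lines below show matches from silent regions with a high WT level or next to a gene of known role. They were read from the GRCm38.p6 assembly (the chromosomes of mm10) on the strand that carries the string, with the match in capitals.
Slc22a23 intron, chr13:34316648-34316677, minus strand: ttgaaacagggcTTGCACAAgggtcgattc
Afap1 intron, chr5:35901352-35901381, plus strand: atttcgatagcaTTGCGTAAcagctagatg
Fbxo16 start site, chr14:65266612-65266641, plus strand: gtccacacattgTTGCCTAAgagaccccgg
AC166902.1 intron, chr9:52443347-52443376, plus strand: agtcactgttaaTTGCATAAtcaaggatta
AC166902.1 intron, chr9:52443429-52443458, minus strand: cagaacagcatcTTGCATAAtgggcaccaa
Chit1 start site, chr1:134138516-134138545, plus strand: actgtgtcgggtTTGCTCAAgccacagcac
Pax5 start site, chr4:44645357-44645386, plus strand: gcctcagagcccTTGCGCAAgtcctcctgg
Rxra intron, chr2:27702425-27702454, minus strand: gccagctgcgggTTGCACAAtgaggagggc
Bcl11a intron, chr11:24121781-24121810, plus strand: tttcttgcgagaTTGCAAAAcatttggaaa
The Pax5 region held the full palindrome, one of 2 silent regions that did. The AC166902.1 region held the string on both strands, 80 bp apart.

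The central 200 bp of the most open silent region outside the deleted genes, in an intron of the read-through gene Gm20388, held the composite C/EBP-ATF site and a MEIS string, both in capitals, and no match to the C/EBP string.
Gm20388 intron, chr8:122210244-122210443, plus strand: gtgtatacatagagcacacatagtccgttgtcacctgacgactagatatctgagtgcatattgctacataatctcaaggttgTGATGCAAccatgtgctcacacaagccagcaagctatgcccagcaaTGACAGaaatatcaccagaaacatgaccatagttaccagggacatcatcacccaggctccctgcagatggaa
The second most open, in an intron of Slc22a23, held a C/EBP string together with MEIS (TGACAG) and E-box (CAGCTG) strings that overlap each other, again in capitals.
Slc22a23 intron, chr13:34316602-34316801, plus strand: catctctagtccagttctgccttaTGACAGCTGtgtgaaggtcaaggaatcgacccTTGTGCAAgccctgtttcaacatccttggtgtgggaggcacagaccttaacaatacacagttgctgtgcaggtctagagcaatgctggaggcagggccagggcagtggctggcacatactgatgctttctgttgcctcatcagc

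Over the deleted genes, 2 silent regions were listed, and they are kept apart because reads cannot be placed on deleted sequence. At Cebpa, a region of 825 bp over the start site and coding exon (chr7:35118826-35119650) had the highest WT mean of all silent regions, 9.99 in log2 or 1017 normalised reads, and a dKO mean of -0.15. At Cebpb, a region of 473 bp in the coding exon (chr2:167689715-167690187), which the annotated body of Tmem189 also overlaps, had a WT mean of 7.38 and a dKO mean of -0.15. Another region, over the Cebpb start site (chr2:167688638-167689380), was lower without being silent, at 8.60 in WT and 3.37 in dKO. From reads alone, closed chromatin and absent DNA cannot be told apart at these loci, where the paper scored deletion of both genes by PCR. The other 233 silent regions lay elsewhere.

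The WT means of the silent regions ranged from 3.91 to 9.99 with a median of 4.90 (quartiles 4.68 and 5.28), or 29.9 normalised reads, against a median of 5.99 in the other lower regions. A WT mean of 6 or more was found in 14 silent regions and in 1871 other lower regions. The table lists only regions past the authors' threshold, so that a region with few WT reads could be listed as lower only with a dKO mean near the lowest level, and the WT levels follow in part from the selection. Of the lower regions, 3 of 3 with a WT mean from 3 to 4 and 22.8% with one from 4 to 5 were silent (130 of 571), and the share was 5.78% from 5 to 6 (88 of 1522) and 0.967% from 6 to 7 (11 of 1138). Against the limit of 3 reads per library, accessibility in dKO was at least 5.58-fold lower at the weakest silent region and at least 11.1-fold lower at the median one.

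**Figure D1:**
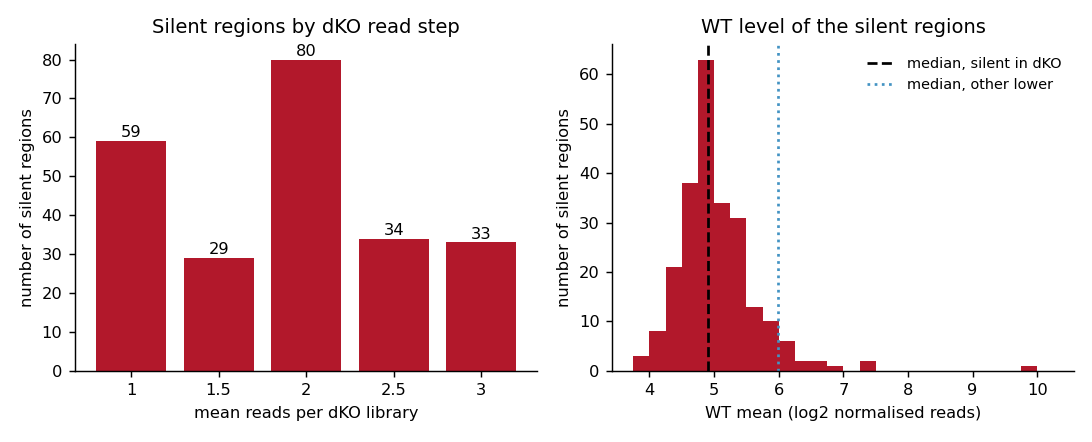
Left, number of silent regions by their mean reads per dKO library (59, 29, 80, 34 and 33 regions from 1 to 3 reads). Right, histogram of their WT group means in log2 normalised reads, with the medians of the silent regions (4.90) and of the other lower regions (5.99) as vertical lines; most silent regions lie to the left of the second line.

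Of the silent regions, 59 (25.1%) were at the lowest dKO level, 80 (34.0%) were at 2 reads per library and 33 (14.0%) at 3, as the plot of read steps shows. A count of 0 and 1 read per library share the lowest level and cannot be separated. The median WT mean was between 4.86 and 5.02 at each of the 5 steps. The limit cut through the last step. Just inside it, at a dKO mean of 1.43, were regions in Fech (WT mean 5.38), in Megf6 (5.33) and at the start site of Lonp2 (5.27). Just outside, at 1.44, were regions beside C4a (5.82), in Adam12 (5.52) and at a start site of Dst (5.50). In all, 46 lower regions outside the limit, at 1.44 or 1.45, had the same 3 reads per library as the 33 silent regions of that step.

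Silent regions were narrow, with a median width of 301 bp (quartiles 264 and 356 bp) against 401 bp for the other lower regions. Only 32 of them were wider than 401 bp. The 202 regions whose WT mean was at or under 1.43 had a similar median width, 297.5 bp (quartiles 258 and 333 bp). Width moves with read number, so that it is not independent of the selection. Within the silent set the widest, at 871 bp, was the Gm20388 region. Per 100 bp of width, the median WT level was also lower in silent regions, at 3.35 against 3.94 in log2 normalised reads. GC content of the central 200 bp was similar, with means of 50.9% and 52.0%, as was the share of repeat-masked bases, with medians of 6.89% and 7.64%. Over 50% of the bases were masked in 11 silent regions and no base was masked in 85.

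By the GENCODE M21 annotation, 103 silent regions lay in introns (43.8%, 95% Wilson interval 37.6% to 50.2%), 81 were intergenic (34.5%), 19 were in exons (8.09%) and 32 were within 1 kb of a start site of any transcript (13.6%, interval 9.81% to 18.6%). The share near start sites was 21.1% in the other lower regions (19.8% to 22.4%) and 18.1% in the higher regions (17.1% to 19.1%). It was 14.4% (10.2% to 19.9%) in the 202 regions whose WT mean was at or under 1.43, close to that of the silent regions. Of all listed regions, 38.7% were in introns, 35.5% intergenic, 6.74% in exons and 19.1% near a start site, so that the intron, intergenic and exon shares of the silent regions were near those of the whole table. The median distance to a start site was 10640 bp for silent regions and 7586 bp for other lower regions. The intervals cover counting error, regions are not replicates, and the difference between the sets was not tested.

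The 12 most open silent regions outside the deleted genes had WT means from 6.04 to 7.32, which is 65.8 to 160 normalised reads. The Gm20388 region (chr8:122209908-122210778) stood at 7.32 in WT and 0.84 in dKO, at least 59.3-fold lower. It lay 58791 bp upstream of a start site of Zfp469 that is not annotated as that of a protein-coding transcript. The nearest coding start site, 71363 bp away, was that of Zfpm1, which encodes the GATA1 partner FOG-1. The Slc22a23 region (chr13:34316499-34316903), in a gene of the organic ion transporter family, went from 6.84 to 0.84 and was at least 42.5-fold lower. In Afap1, which encodes a protein that crosslinks actin filaments, the region chr5:35901246-35901595 went from 6.63 to -0.15, at least 36.8-fold lower. A region 14520 bp upstream of Tln2, whose product talin 2 ties integrins to actin, went from 6.56 to 0.43 and was at least 35.0-fold lower.

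The remaining 8 of these regions had at least 24.4-fold to 29.2-fold lower accessibility. They included the start sites of Tmem185a (WT mean 6.16, dKO mean -0.15) and of Fbxo16, which encodes an F-box protein (6.15 and 1.16). Introns of Firre (6.28 and -0.15), of the guanine nucleotide exchange factor gene Farp1 (6.13 and 1.42) and of the noncoding gene AC166902.1 (6.12 and 0.84) were also among them, as was an exon of Map3k1, a kinase gene of the JNK pathway (6.13 and 1.16). The last pair consisted of a region over the annotated small nuclear RNA gene Gm24305 (6.30 and 1.42) and one 11808 bp from the pseudogene 4930488N24Rik (6.04 and 0.43). Genes of these kinds have near copies elsewhere in the genome, and how reads with several matches were placed is not given in the sources used here. A C/EBP string was present in 5 of the 12.

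Near coding start sites, 22 silent regions lay within 1 kb (9.36%, interval 6.26% to 13.8%), against 14.0% of other lower, 11.1% of higher and 12.1% of all listed regions. The share was 6.44% in the 202 regions whose WT mean was at or under 1.43. Of the 22 silent regions, the 8 with the highest WT means were those of Cebpa, Cebpb, Tmem185a and Fbxo16, given above, and 4 more. The region at Osbpl5, a lipid transfer protein gene, had a WT mean of 5.59 and a dKO mean of 0.44. That at Frmpd2 had 5.54 and 0.44. That at Chit1, which encodes the macrophage chitinase chitotriosidase, had 5.52 and 1.42. That at Disp1, whose product releases Hedgehog proteins from cells, had 5.44 and 0.84. At these 4 genes accessibility was at least 16.1-fold to 17.9-fold lower in dKO. A C/EBP string was found in 7 of the 32 regions near a start site of any transcript (21.9%, interval 11.0% to 38.8%) and in 102 of the 203 others (50.2%, interval 43.4% to 57.1%). The 32 include the regions over Cebpa and Cebpb, which held no such string. This split was not made in the other sets, so that it cannot be read as particular to silent regions.

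The silent regions were then assigned to genes of known roles in blood cells. Of 10 gene lists with 314 genes in all, silent regions had their nearest coding start site at list genes 9 times (3.83%, interval 2.03% to 7.12%), against 2.83% of other lower regions, 5.34% of higher regions and 4.36% of all listed regions. The C/EBP family accounted for 2, the deleted genes themselves. Adhesion and migration genes accounted for 2, both in Afap1, and myeloid transcription factors for 2. The MLL and HOX program, erythroid and megakaryocyte genes and lymphoid genes had 1 each. No silent region was nearest to any of 38 neutrophil granule genes (37 of them annotated), 49 monocyte and macrophage genes, 38 cytokine receptor genes or 17 mast cell and basophil genes. These 4 lists also had few regions in the whole table, with 24 of 3746 other lower (0.641%), 128 of 6035 higher (2.12%) and 152 of all 10016 listed regions (1.52%), and 0 of 235 silent regions allows a share of up to 1.61%.

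Among the transcription factor genes of the lists, the silent region of Pax5, the master regulator of B cells, was 272 bp from an internal start site and had a WT mean of 4.71 and a dKO mean of 1.16. The silent region of Bcl11a, a zinc-finger repressor that MLL fusions are known to bind, was intronic, at 4.47 and 0.86. That of Rxra, the common partner of nuclear receptors, was intronic at 4.54 and 1.43, and that assigned to Runx2, at 4.29 and 1.18, lay 242116 bp upstream, within Supt3. Of the 9 silent regions assigned to list genes, 5 held a C/EBP string in the central 200 bp, namely these 4 and 1 of the 2 in Afap1. The regions of Cebpa and Cebpb and the one nearest to Zfpm1 held none. The other listed regions in the bodies of Pax5 (3), Bcl11a (4) and Rxra (2) were lower in dKO too, whereas Runx2 had 1 lower and 5 higher regions in its body.

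**Figure D2:**
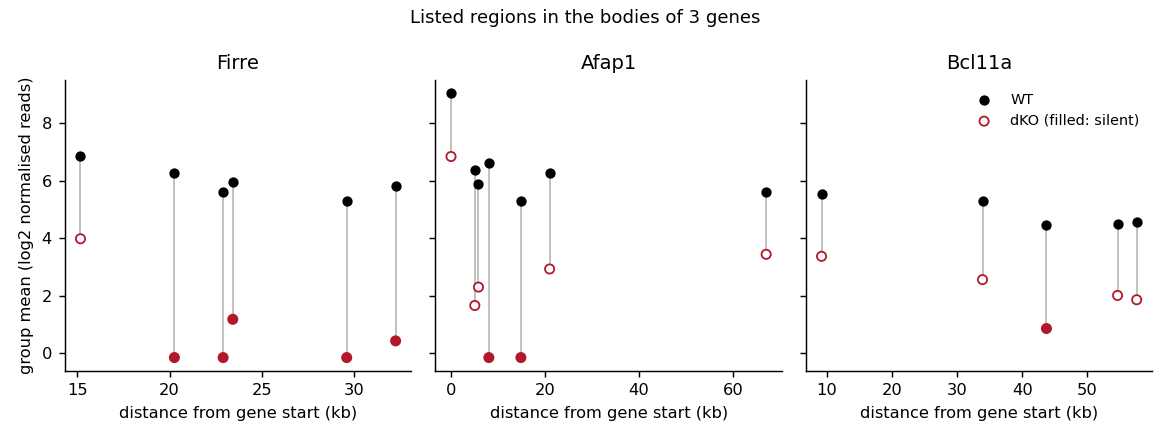
Group means in log2 normalised reads of every listed region in the bodies of Firre, Afap1 and Bcl11a, against the distance of the region's centre from the annotated gene start in kb; black, WT; red, dKO, filled where silent. In Afap1 and Bcl11a the silent regions sit among lower regions that kept reads, for example 6.84 at the Afap1 start site, whereas the 5 silent Firre regions are consecutive.

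The 235 regions had 209 different nearest coding genes. Of these, 189 had a single silent region and 20 had 2 or more. At their own start sites, 164 of the 209 genes had no listed region, 22 had a silent one, 22 had only another lower one and 1 had only a higher one. The 22 with a silent one follow from the selection. No such count was made for genes nearest to the other listed regions, so that these numbers have no background share beside them. Nearest coding genes with 3 silent regions were Inhbb, which encodes an activin subunit (WT means 4.62 to 5.39), the tetraspanin gene Tspan11 (4.56 to 4.88) and Gm12728 (4.79 to 5.21), the last from 139167 to 179184 bp downstream. By nearest coding start site, pairs were assigned to Afap1, Slc22a23, Sox13, Map1b, Dst, Pik3r1, Disp1, Dio3, Usp24, Rpl27a, Rec114, Rapgef5, B3galnt1, 4930535I16Rik and Ttr, among others. Some lay far from the named gene or inside another gene. Both Rpl27a regions were in St5, whose body held 3 silent regions, and both B3galnt1 regions were in Ppm1l. In the pairs of Rapgef5, Dio3 and Pik3r1, 1 region each lay 349866, 320047 and 248422 bp upstream. The body of Anpep held 2 silent regions. At Afap1 both silent regions had a dKO mean of -0.15 and WT means of 6.63 and 5.28, as the plot of gene bodies shows. At Sox13, which encodes an HMG-box transcription factor, both were upstream, at WT means of 5.49 and 4.48 and a dKO mean of -0.15. Both regions at Ttr, inside the antisense gene Gm16090, were over 50% repeat-masked.

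Some silent regions lay close to one another, and their listed neighbours were mostly lower in dKO. Another silent region lay within 100 kb of 40 of the 235 (17.0%, interval 12.8% to 22.3%), against 6.35% of other lower regions and 1.57% of higher regions. These 40 formed 16 runs, of which 11 were pairs. Other listed regions lay inside only 2 of the 16 runs, and these were lower in dKO. Of the 463 listed neighbours within 100 kb of silent regions, 78.2% were lower in dKO and 21.8% higher. The corresponding share of lower neighbours was 69.5% for other lower regions and 15.9% for higher regions. By region, 121 silent regions had only lower neighbours, 32 only higher ones, 28 both, and 54 had no listed neighbour within 100 kb. The run with the most regions, 5, was in Firre, whose nearest coding start site is that of Olfr1324.

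Firre is an X-linked gene for a long nuclear RNA that contributes to nuclear organisation. It held 5 silent regions within 12276 bp of its introns, with WT means of 5.83, 5.28, 5.94, 5.62 and 6.28 from the lowest coordinate (50602928) to the highest (50615203). The dKO means in the same order were 0.43, -0.15, 1.18, -0.15 and -0.15. A sixth region of the gene, nearer its start, was lower but kept reads (6.87 in WT and 3.98 in dKO). Firre is known to contain local repeats, and 4 of the 5 silent regions shared words of 20 bases. The longest stretch common to these 4 was 23 bases and is shown as an example of the sequence they share.
Firre shared stretch, chrX:50614971-50614993, plus strand: cctgcttcaaaatggctgaggag
The other copies stood at 50602984, 50605618 and 50612308 on the same strand. None of the 20-base words occurred in the region that kept reads, and the part of repeated sequence in these values was not tested.

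On the X chromosome 14 of 78 lower regions were silent, or 17.9% (interval 11.0% to 27.9%), against 5.66% on the autosomes (221 of 3903). Without the Firre regions the X share was 12.5% (9 of 72, interval 6.72% to 22.1%). Among autosomes the share ran from 2.16% on chromosome 11 to 9.43% on chromosome 1. The X and autosomal shares rest on neighbouring regions that are not independent, and their difference was not tested.

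**Figure D3:**
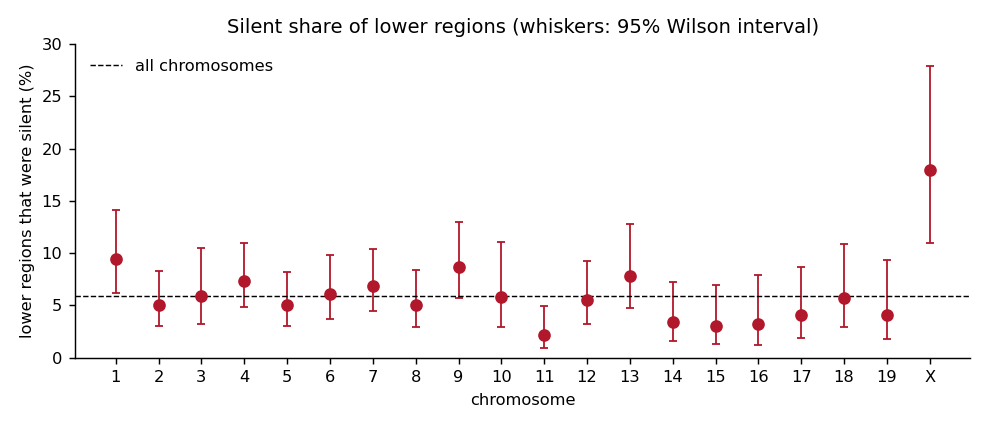
Share of lower regions that were silent in dKO, in percent, for each chromosome; points, share; whiskers, 95% Wilson interval; dashed line, 5.90% over all chromosomes. The X chromosome has the highest share, 17.9%, with a wide interval.

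Sequence content was then compared with the other sets. The C/EBP string occurred in the central 200 bp of 109 silent regions (46.4%, interval 40.1% to 52.8%). The share was 40.4% in other lower regions (38.9% to 42.0%), 20.1% in higher regions (19.2% to 21.2%) and 14.9% in the 202 regions whose WT mean was at or under the same limit (10.6% to 20.4%). In windows of the same length 2 kb to either side it was 14.3% for silent regions and 14.4% for other lower regions. Other lower regions with a WT mean between the quartiles of the silent regions had the string in 45.2% of 683 regions (41.5% to 49.0%), an interval that overlaps that of the silent regions. By dKO read step the share in silent regions was 42.4%, 37.9%, 46.2%, 55.9% and 51.5% from 1 to 3 reads.

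**Figure D4:**
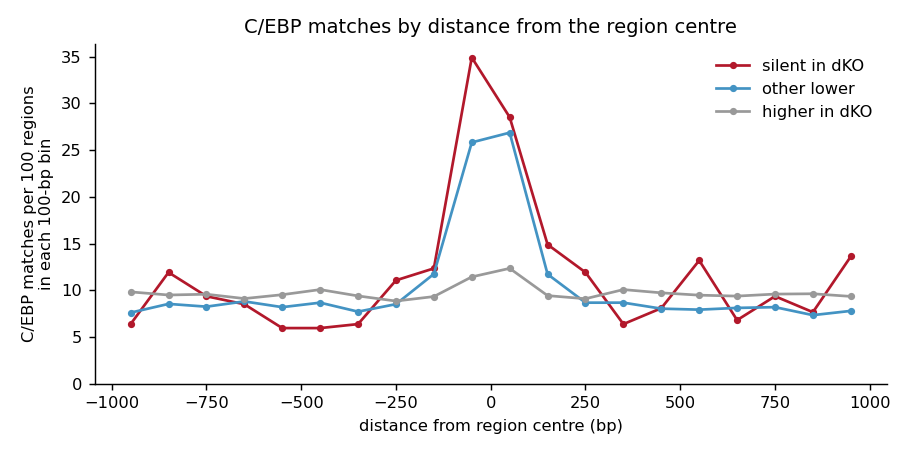
C/EBP matches per 100 regions in bins of 100 bp against the distance from the region centre in bp, for silent, other lower and higher regions. In both bins next to the centre silent regions have 34.9 and 28.5 matches, other lower regions 25.8 and 26.9 and higher regions 11.4 and 12.3.

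The matches were concentrated at the centre of the silent regions, as the plot of matches by distance shows. A single match was found in 76 silent regions, 2 in 28 and 3 in 5. TTGCACAA was the most frequent word, with 26 of 147 matches (17.7%), followed by TTGCTCAA with 22 (15.0%) and TTACACAA with 14 (9.52%). The same 3 words led in the other lower regions, with 14.3%, 9.16% and 9.11% of 1932 matches. The spelling TTGCNNAA alone was present in 37.0% of silent regions (interval 31.1% to 43.4%) and 28.9% of other lower regions (27.5% to 30.4%). The composite site TGATGCAA was present in 12 silent regions (5.11%), in 4.70% of other lower regions and in 1.28% of higher regions, and 2 of the 12 also held the C/EBP string.

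The strings of AP-1, PU.1 and RUNX were less frequent in the silent regions than in the higher ones. AP-1 (TGAGTCA), bound by FOS and JUN proteins, was found in 9 silent regions (3.83%, interval 2.03% to 7.12%), in 4.73% of other lower regions and in 26.7% of higher regions. The ETS string of PU.1 (GAGGAAGT) was found in 1 silent region (0.426%, up to 2.37%), in 3.52% of other lower and in 13.1% of higher regions. RUNX (AACCACA) was found in 7.66%, 9.13% and 13.8%, in the same order. The GATA string AGATAA was found in 5.11%, 6.41% and 8.30%, and IRF (GAAANNGAA) in 4.26%, 4.86% and 6.46%. In the central 400 bp GATA was found in 14.5%, 14.6% and 17.2%, and IRF in 13.2%, 9.72% and 12.9%, so that the order of the sets for IRF depended on the window. In the central 200 bp MEIS was found in 17.0%, 18.5% and 18.4%, and the E-box in 19.1%, 17.2% and 14.5%. The CTCF motif was found in 0 of 235 silent regions, with an upper limit of 1.61%, in 2.64% of other lower regions and in 0.414% of higher regions.

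**Figure D5:**
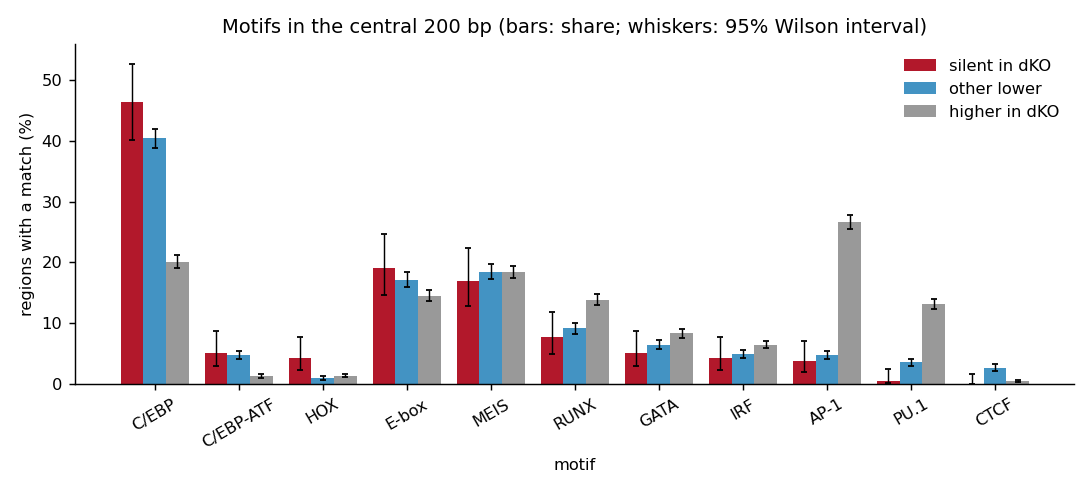
Share of regions, in percent, with a match to each of 11 motifs in the central 200 bp, for silent, other lower and higher regions; whiskers, 95% Wilson interval. C/EBP is the most frequent motif in silent regions (46.4%), and AP-1 and PU.1 are highest in the higher regions (26.7% and 13.1%).

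The HOX string TGATTTAT was found in 10 silent regions (4.26%, interval 2.33% to 7.65%), in 0.961% of other lower regions (0.695% to 1.33%) and in 1.31% of higher regions. In the windows 2 kb away it was found in 0.214% beside silent regions and 0.952% beside other lower regions. HOXA proteins sustain the growth of MLL-fusion leukaemias. The 10 regions, named after their values were seen, were nearest to start sites of Zfyve21, Gm43725, Gm24363, Trdv3, Gm22773, Mir6404, Slc24a4, Sncaip, Tmem241 and Ccdc33, and 4 of them also held the C/EBP string. This is 1 of 11 motifs searched, the count is small, and the difference was not tested. At least 1 of the 11 motifs was present in 171 silent regions, and 64 (27.2%) had none of them. This count was not made in the other sets and cannot be read as a trait of the silent regions. Short strings are frequent outside them too, with MEIS in 15.2% and the E-box in 8.35% of the windows 2 kb from silent regions.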

How the data were processed

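ATAC-seq reads were preprocessed by the authors with PiGx, aligned to mm10 with Bowtie2 and called as peaks with MACS2, and groups were compared with DiffBind 2.14.0 at a corrected P-value of 0.05. Treatment of duplicates, multi-mapping reads and the Tn5 offset is not given in the sources used here, and copies left in would raise counts over repeats. The deposited table holds log2 values (group means of normalised reads and the fold change), region width, a p-value and its FDR per region. The authors' fold change, p-value and FDR were not used. Both deposited files were identical. The paper gives an average number of reads per ATAC-seq sample, but the depth of each library is unknown. The limit was the lowest dKO mean plus the log2 of 3. Regions were annotated with GENCODE M21, and strings were searched with Python 3.11.15 and pysam 0.24.0. The planned comparison of libraries was not made, since no values per library were held. Members, gene lists and motifs were chosen with earlier results of these data known. Regions named were those over Cebpa and Cebpb, the 12 highest WT means outside them, the 8 highest near coding start sites, those nearest to list genes, genes with 2 or more, and 3 on either side of the limit. The intervals are binomial over regions. Fold bounds are the WT mean over the limit and carry no error, and PCR duplicates may remain in the reads. Scripts were tested on simulated data.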

Additional observations from a re-analysis of the deposited data

How the results depend on the processing

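The alternatives were taken from a plan, except the inclusion of all regions on the step of 3 reads per library, the comparison at like WT level, the C/EBP share without the deleted genes and the X share without Firre, each of them added once the data had been seen. The number of silent regions followed the limit by construction, from 59 at 1 read per library to 439 at 4 reads, and was 281 when every region of the step of 3 reads was taken. At 1 read per library the median width was 292 bp. Counting start sites of protein-coding transcripts only gave 9.36% near a start site. Counting silent neighbours within 500 kb gave 31.5%, since the wider distance contains the narrower one. The C/EBP share of silent regions depended on the window and the string, at 31.9% in 100 bp, 57.4% in 400 bp, 56.2% in the whole region, 37.0% with the spelling TTGCNNAA alone and 0.851% with the palindrome. In other lower regions it was 26.3%, 52.6%, 54.2%, 28.9% and 0.801% in the same order. In 400 bp, 5 of the 10 other motifs in silent regions left the interval of the reported share, namely AP-1 (7.66%), GATA (14.5%), IRF (13.2%), MEIS (30.6%) and the E-box (30.6%). Of 33 recomputed values on the number, level, width, position, C/EBP share and spacing of the silent regions, the 23 not given as changed above stayed within 1.5 times the reported count or within the interval of the reported value. No paired analysis was possible because only group means were held, which also means that no library could be left out in turn. Every fold change here is a bound set by the chosen limit, and the shared lowest level leaves 0 and 1 read per library indistinguishable.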
